A study of Homo sapiens with 12 samples.

Results

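Divergent transcript genes were the 78 genes of 20771 in the count table whose names end in -DT. Such a name gives a noncoding RNA that starts beside a coding gene and runs away from it, and the coding gene named before the suffix was taken as its partner. The table held the partner of 77 of the 78, all but that of APCDD1L-DT, and every partner was a protein-coding gene. After low counts were filtered, 49 of the 78 were tested among 16515 genes, and 48 of these had a tested partner. RNA came from 2 Ewing sarcoma lines, TC71-RRM1-KO and EW8-RRM1-KO, each isolated as a single-cell clone in which the endogenous RRM1 gene was knocked out and a codon-optimized, doxycycline-inducible RRM1 transgene was expressed. RRM1 is the catalytic subunit of ribonucleotide reductase, the enzyme that makes deoxynucleotides. In each line, 3 libraries were labelled 0 h (with doxycycline) and 3 were labelled 48 h (without doxycycline for 48 hours). The question was how the -DT genes and their partners changed, in each line, once the transgene was switched off.

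Most active promoters of mammalian genes start transcription in both directions. The upstream RNA is often cleaved early and degraded by the nuclear RNA exosome, and some of these RNAs are instead spliced, polyadenylated and stable enough to be given a gene name. The libraries were made from polyA RNA, so transcripts without a tail were not sampled. The functions of most -DT RNAs are not established, and the roles given below are those of the partners.

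The total count per library was between 18468485 and 35698991, and all replicate pairs differed by more than sampling noise (chi-square per gene 1.95 to 8.56). No source says whether replicates came from separate cultures, so the p-values measure only the spread between these libraries. The RRM1 row had 166 to 317 counts in EW8 at 0 h, then 1201 to 1514 at 48 h, and 316 to 422 and 674 to 778 in TC71. Whether reads of the codon-optimized transgene were counted in that row is not stated, so it does not check the labels, and each direction below follows the labels as given. CD99, a surface marker of Ewing sarcoma, had a mean of 244 CPM (counts scaled to library size by TMM) or more in each group. It fell in EW8 from 334 to 244 CPM, by 0.45 on the log2 scale. Of the other Ewing sarcoma markers examined, BCL11B fell by 1.11 in EW8 and 0.95 in TC71. FLI1 fell by 0.72 and 0.41, and PRKCB by 0.33 and 0.20. NR0B1 rose by 0.98 and 0.19, and NKX2-2 (8.34 to 16.4 CPM), LIPI, FCGRT, STEAP1 and CCND1 also rose in both lines. The leukocyte marker PTPRC and the hepatocyte marker ALB had at most 0.114 and 0.140 CPM. Other markers of cell types outside the lines were present. DCN, of fibroblasts, was at 13.5 CPM in EW8 at 0 h, 21.4 CPM at 48 h, and 18.0 and 29.2 CPM in TC71, and rose in both lines (by 0.67 and 0.69 on the log2 scale). LUM, of fibroblasts, was at 4.70 and 6.58 CPM in EW8 (it rose by 0.49) and at most 0.129 CPM in TC71, and the epithelial marker EPCAM was at 0.143 and 0.334 CPM in EW8 (adjusted p = 0.0676) and at 0.936 and 1.46 CPM in TC71, where it rose by 0.67 (adjusted p = 0.0353). Their part in the -DT results was not tested. In bulk RNA, fewer cells of a type and less RNA per cell cannot be told apart.

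By the GENCODE 44 annotation (hg38), all 78 were long noncoding RNAs and all 77 with a partner lay on the opposite strand. The nearest annotated starts of the 2 genes were within 1000 bases in 73 of 77 pairs, with a median gap of 114 bases. In the 48 tested pairs these starts were within 1000 bases in 46, with a median gap of 113.5 bases. By the starts of the canonical transcripts, fewer pairs were so arranged. The -DT start lay upstream of the partner's start and within 1000 bases in 61 of the 77 pairs and in 41 of the 48. FBXO30-DT was listed under another symbol, EPM2A-DT, and CCDC84-DT and MAFG-DT were listed as CENATAC-DT and MILIP. Exon length ranged from 415 to 30756 bases with a median of 3219.5, and 14 of the 78 had a single exon block. Exon bases were shared with another gene of the table by 28 of the 78 and by 19 of the 49 tested. The kit was stranded but the strand setting of the counting is not given in the sources used here, so reads over those shared bases could not be assigned to one gene.

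The DNA around the start of a -DT gene and the start of its partner is where transcription of both begins. The stretch between the annotated bounds of the 2 genes, which runs from the nearest annotated start of one to that of the other, is shown for the 7 pairs that the results turn on, from the hg38 assembly, written 5′ to 3′ on the strand of the partner, so that the -DT gene lies before the first base and runs the other way. Capitals mark a CCAAT box, read as CCAAT on the partner strand or ATTGG where it lies on the -DT strand. The ODC1 stretch is the 300 bases nearest to ODC1 of a gap of 326, and the bases left out lie between it and ODC1-DT, whereas each of the other 6 stretches is the whole gap between the bounds. The starts of the canonical transcripts lie further apart than the bounds in some pairs, at 578 bases in BAIAP2, 219 in DNAJC3 and 169 in RAB30. For EIF2AK3 the annotated genes overlap and leave no such stretch.
BAIAP2-DT to BAIAP2, chr17:81034882-81035121, plus strand: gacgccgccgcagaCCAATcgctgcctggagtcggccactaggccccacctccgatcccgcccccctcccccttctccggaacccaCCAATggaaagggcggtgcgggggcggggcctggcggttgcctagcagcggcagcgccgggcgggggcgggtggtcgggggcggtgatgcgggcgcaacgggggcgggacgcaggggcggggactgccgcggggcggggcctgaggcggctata
MAFG-DT to MAFG, chr17:81927736-81927828, minus strand: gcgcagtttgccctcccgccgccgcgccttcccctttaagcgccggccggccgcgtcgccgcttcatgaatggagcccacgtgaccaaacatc
RAB30-DT to RAB30, chr11:83071924-83072051, minus strand: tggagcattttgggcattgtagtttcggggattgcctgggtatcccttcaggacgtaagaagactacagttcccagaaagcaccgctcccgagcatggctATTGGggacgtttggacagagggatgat
DNAJC3-DT to DNAJC3, chr13:95676974-95677138, plus strand: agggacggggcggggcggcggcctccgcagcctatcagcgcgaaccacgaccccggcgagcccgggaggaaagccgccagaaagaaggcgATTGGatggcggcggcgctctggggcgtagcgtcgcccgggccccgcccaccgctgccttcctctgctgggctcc
ODC1-DT to ODC1, chr2:10448328-10448627, minus strand: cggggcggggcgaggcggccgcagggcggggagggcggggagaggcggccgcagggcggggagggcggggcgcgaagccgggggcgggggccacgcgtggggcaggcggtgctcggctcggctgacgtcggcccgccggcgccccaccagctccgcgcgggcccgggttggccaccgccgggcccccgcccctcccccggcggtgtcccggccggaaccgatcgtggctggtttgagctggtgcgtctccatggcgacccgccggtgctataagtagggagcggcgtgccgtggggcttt
FZD4-DT to FZD4, chr11:86955396-86955615, minus strand: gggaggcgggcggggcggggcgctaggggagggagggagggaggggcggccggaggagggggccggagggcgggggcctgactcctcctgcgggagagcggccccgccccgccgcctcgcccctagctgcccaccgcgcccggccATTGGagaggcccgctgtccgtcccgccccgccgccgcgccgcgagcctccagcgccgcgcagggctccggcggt
OSER1-DT to OSER1, chr20:44210772-44210906, minus strand: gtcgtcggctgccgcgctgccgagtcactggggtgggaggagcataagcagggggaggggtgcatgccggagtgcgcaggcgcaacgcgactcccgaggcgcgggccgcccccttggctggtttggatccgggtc
These stretches were rich in G and C, from 52.3% in RAB30 to 83.6% in FZD4, and held between 5 (RAB30) and 45 (ODC1) CpG sites. A CCAAT box lay in 4 of the 7, on the partner strand in BAIAP2 and on the -DT strand in RAB30, DNAJC3 and FZD4.

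Across the RefSeq promoter windows of 300 bases (GRCh38.p14, 250 before and 50 after a gene's start), 34 of the 48 -DT genes with a tested partner and 40 of the 48 partners were matched. CCAAT, searched on both strands, was in 18 of the 34 -DT windows (52.9%) and in 18 of the 40 partner windows (45.0%), against 35.7% of all 27305 windows. The AP-1 site TGANTCA was in 2 of the 34 -DT windows and 1 of the 40 partner windows, against 7.76% of all windows. The cAMP response element TGACGTCA was in 1 window of each set (1.98% of all), TATAAA in 1 and 2 (12% of all) and GGAAGGAA in 3 of each set (3.58% of all). The serum response CArG box was in 0 of the 34 and 1 of the 40 (1.29% of all). None of these motifs contains another, and the windows of a pair whose starts lie close share bases.

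The -DT genes were expressed at low levels. Together they took 0.0154% ± 0.000424 (SD, n = 3) of the counts in EW8 at 0 h, then 0.0152% ± 0.000195 at 48 h, and 0.0226% ± 0.000328 and 0.0223% ± 0.000458 in TC71. The summed shares at 0 h and 48 h differed by less than the SD at 0 h in each line, and every TC71 library was above every EW8 library. The mean over the 12 libraries ranged from 0.280 to 36.4 CPM among the 49 tested genes, with a median of 1.16 CPM, and 22 of them were below 1 CPM. The 5 with the highest mean CPM held 54.5% of all -DT counts, a share that also follows transcript length, and CTBP1-DT, MRPL20-DT, BAIAP2-DT and MAFG-DT were among them. At 0 h, the mean CPM was higher in TC71 than in EW8 for 43 of the 49 (87.8%), against 50.6% of all genes tested. The libraries of the lines did not overlap for 30 that were higher in TC71 (61.2%) and 2 that were lower (4.08%), against 34.3% and 34% of all genes. The filter fixed part of this, since 6 of the 49 (12.2%, against 5.82% of all genes) reached its level in at least 3 libraries only in TC71, and all 6 were higher there (100%, against 95.6% of such genes). Among the 41 that reached it in each line, 36 were higher in TC71 (87.8%), against 49.1% of all such genes. Of these 41, 26 did not overlap and were higher (63.4%) and 2 did not overlap and were lower (4.88%), against 33.7% and 36%. This difference between the lines was not tested.

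Per kilobase of exon, most -DT genes were far below their partners. The median -DT level was 1.66% of the partner's CPM per kilobase in EW8 at 0 h, 2.18% in EW8 at 48 h, 4.23% in TC71 at 0 h and 4.26% in TC71 at 48 h. At 0 h it was below 10% in 35 of 48 pairs in EW8 and in 30 of 48 in TC71. The lowest value in EW8 at 0 h was 0.0267% for RPL34-DT, whose partner encodes a ribosomal protein. In the same group 2 -DT genes exceeded their partners per kilobase. BAIAP2-DT was at 254% of BAIAP2, and CCDC84-DT was at 109% of CCDC84. MAFG-DT was at 54.8% of MAFG in EW8 and 59.8% in TC71 at 0 h.

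**Figure D1:**
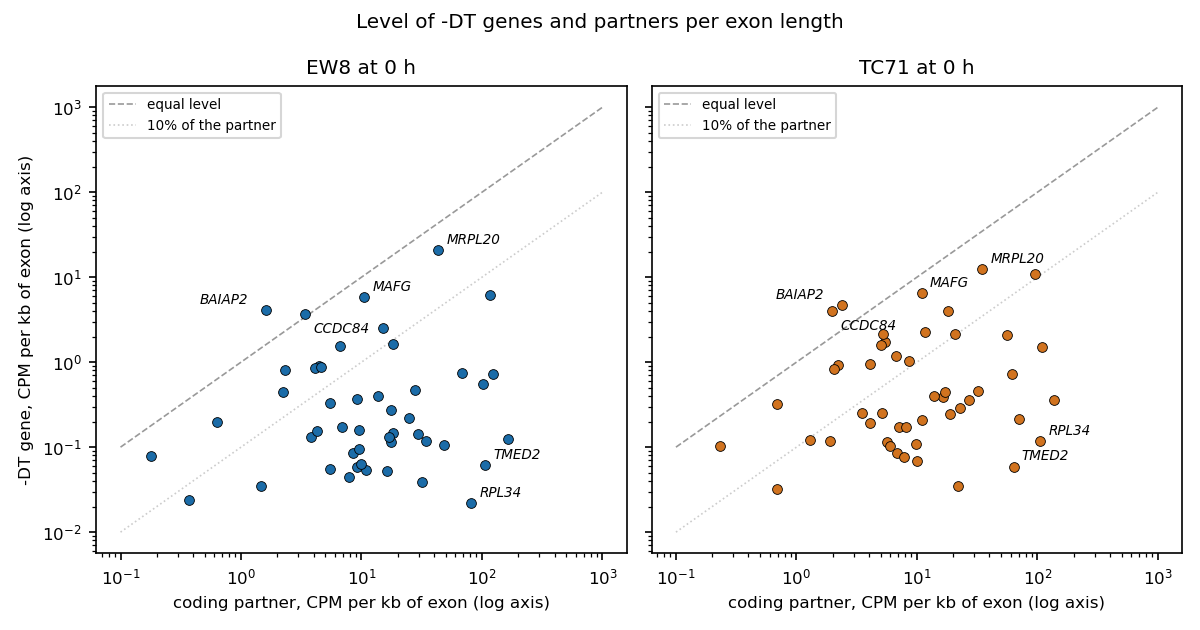
Level of each tested -DT gene (vertical axis) against that of its partner (horizontal axis), both as mean CPM per kilobase of exon at 0 h on log axes, for 48 pairs in EW8 (left) and TC71 (right). Most points lie under the dotted line that marks 10% of the partner (35 pairs in EW8 and 30 in TC71), while BAIAP2 and CCDC84 lie above the dashed line of equal level in both lines.

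The 29 -DT genes that were not tested never exceeded 15 counts in a library, and their counts summed over the 12 libraries to between 22 and 92. They were those of ANK3, BSN, CAMTA1, CEBPA, CPEB2, CSTF3, DCXR, DLX2, DOCK9, ECI2, EDIL3, EDRF1, EPCAM, IBA57, IL10RB, ITPR1, KDM2B, LRIG2, LRRK2, MAN1B1, MAN2A1, MANEA, MAPK6, NSMCE1, PDXP, PIK3IP1, RB1, RPP38 and TMEM18. When the filter was left out, RPP38-DT was called higher in EW8 (log2 fold change 1.91, adjusted p = 0.0262), and ECI2-DT (2.55, adjusted p = 0.0331) and RB1-DT (3.49, adjusted p = 0.0044) were called higher in TC71, all from such low counts and by edgeR's quasi-likelihood test.

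Next, the change from 0 h to 48 h was tested in each line with edgeR's quasi-likelihood test. Called genes had an adjusted p below 0.05, with Benjamini-Hochberg adjustment over 16515 genes, as well as a change of more than 2-fold, and rose or fell is written for an adjusted p below 0.05. In EW8, 7 of the 49 -DT genes were called higher (14.3%) and 3 were called lower (6.12%), against 13.9% and 3.35% of all genes tested. In TC71, 1 was called higher (2.04%) and 0 were called lower, against 3.26% and 0.854% of all genes. At an unadjusted p below 0.05, 23 -DT genes passed in EW8 (46.9%) and 11 in TC71 (22.4%), against 70.6% and 49.3% of all genes, and with DESeq2 0 were called higher and 0 lower in TC71.

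Without the fold threshold, the shares of -DT genes that passed were under those of all genes, a difference that was not tested. In EW8, 12 rose and 10 fell (24.5% and 20.4%), against 37% and 31.6% of all genes. In TC71, 4 rose and 5 fell (8.16% and 10.2%), against 22.9% and 19.2% of all genes. The precision of the -DT genes was also lower, with a median standard error (SE) of 0.27 in EW8 and 0.23 in TC71 on the log2 scale, against 0.08 in both lines over all genes. Its part in these shares was not tested. The 49 had a median log2 fold change of 0.03 (EW8) and −0.07 (TC71), beside 0.03 and −0.0013 over all genes. The 0 h and 48 h libraries did not overlap in CPM for 25 of the 49 in EW8 (51.0%) and 14 in TC71 (28.6%), against 71.1% and 49.6% of all genes.

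**Figure D2:**
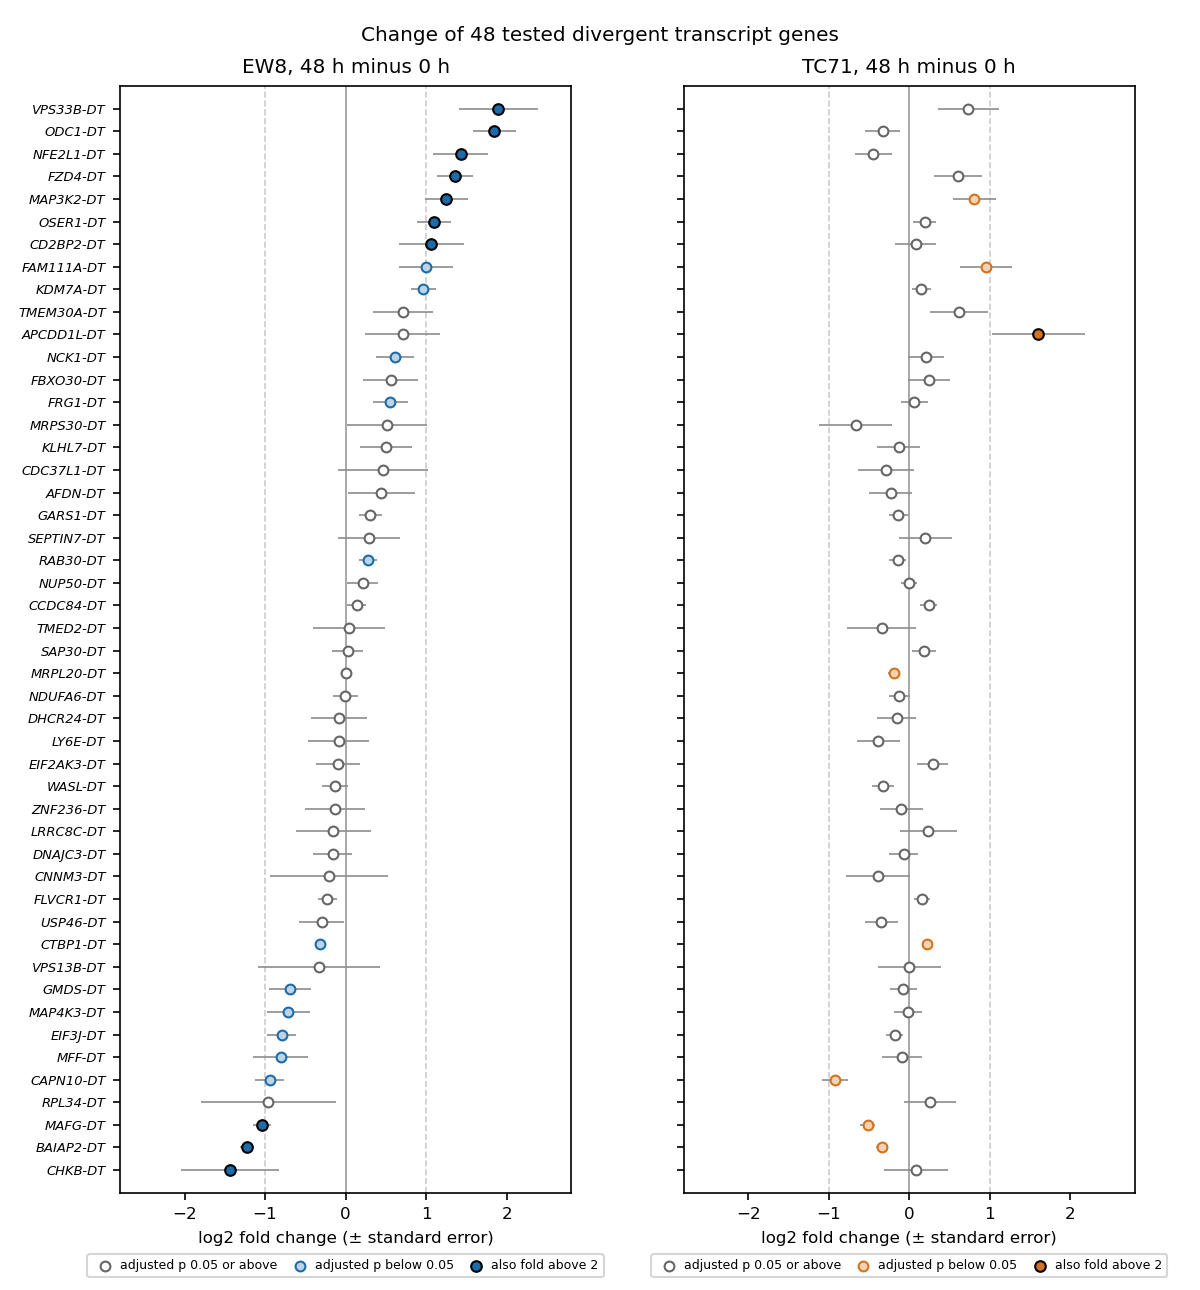
Log2 fold change from 0 h to 48 h (horizontal axis) of 48 of the 49 tested -DT genes (rows, in the order of their EW8 change) in EW8 (left) and TC71 (right), with bars for 1 SE. Filled points with black edges are called genes (7 higher and 3 lower in EW8, 1 higher in TC71), pale points passed the adjusted p alone, and dashed lines mark a fold of 2.

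Other classes of noncoding genes, taken by name, are set beside the -DT genes. In EW8, 34.5% of 203 LINC genes and 20.4% of 368 antisense (-AS) genes were called higher, against 14.3% of the -DT genes and 12.8% of 12850 protein-coding genes. In TC71 these shares were 11.3%, 2.99%, 2.04% and 3.09%. The shares called lower in EW8 were 3.45% for LINC genes, 6.25% for -AS genes, 6.12% for -DT genes and 2.28% for protein-coding genes, and 0.985%, 1.63%, 0% and 0.475% in TC71. The median log2 fold change in EW8 was 0.58 for LINC genes, 0.25 for -AS genes and 0.03 for -DT genes. Median levels were close, at 0.99, 1.08 and 1.16 CPM. The difference between these classes was not tested.

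**Figure D3:**
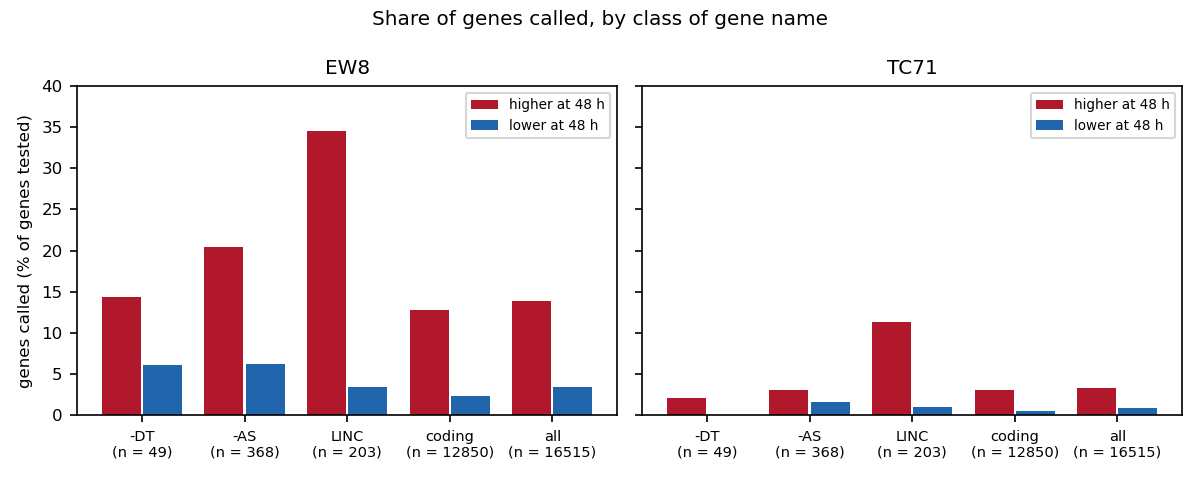
Share of tested genes called higher (red) or lower (blue) at 48 h, in percent of the genes tested (vertical axis), for classes of gene name in EW8 (left) and TC71 (right). In EW8 the bar of -DT genes called higher (14.3%) is near that of all genes (13.9%), and the LINC bar (34.5%) is the tallest.

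Among the 7 -DT genes called higher in EW8, FZD4-DT and OSER1-DT averaged at least 20 counts in both groups. FZD4 is a receptor for Wnt proteins and Norrin. FZD4-DT was at 1.05, 0.974 and 0.763 CPM in the EW8 0 h libraries and at 2.23, 2.46 and 2.30 CPM at 48 h. The groups did not overlap, and its log2 fold change was 1.36 (SE 0.22, adjusted p = 2.19e-06). In TC71 it was 0.61 (SE 0.30, adjusted p = 0.105), from 0.343 to 0.662 CPM at 0 h and 0.649 to 0.897 CPM at 48 h. FZD4 itself rose from a mean of 102 CPM to 242 CPM in EW8, by 1.25 on the log2 scale, so both genes of this pair rose.

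OSER1 encodes a serine-rich protein induced by oxidative stress. OSER1-DT was at 1.31, 1.43 and 0.915 CPM in EW8 at 0 h and at 2.02, 3.16 and 2.35 CPM at 48 h. Its log2 fold change was 1.10 (SE 0.21, adjusted p = 2.04e-05), with groups that did not overlap. It fell to 0.85 without replicate 3 of EW8 at 0 h and to 0.90 without replicate 2 at 48 h, both under the fold threshold. OSER1 was at 36.6 to 40.5 CPM at 0 h and 89.4 to 99.7 CPM at 48 h, a log2 fold change of 1.32. In TC71, OSER1-DT changed by 0.20 (SE 0.14, adjusted p = 0.282), and the difference between the lines was 0.91 (adjusted p = 0.00349).

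The other 5 -DT genes called higher in EW8 rested on fewer counts. ODC1-DT, beside the gene of ornithine decarboxylase, the rate-limiting enzyme of polyamine synthesis, had 9, 13 and 20 counts at 0 h, then 37, 45 and 41 at 48 h. Its log2 fold change was 1.84 (SE 0.27, adjusted p = 2.22e-07), and every 48 h library was above every 0 h library. NFE2L1-DT, whose partner is a transcription factor of proteasome genes, had 7, 7 and 11 counts at 0 h, then 22, 15 and 18 at 48 h (log2 fold change 1.43, SE 0.34, adjusted p = 3.41e-04). MAP3K2-DT, beside a kinase of mitogen-activated protein kinase cascades, had 20, 6 and 27 counts at 0 h, then 34, 30 and 38 at 48 h (1.25, SE 0.27, adjusted p = 1.15e-04). The library with 6 counts stood apart, and without it (replicate 2 at 0 h) the log2 fold change was 0.99. MAP3K2-DT also shares 218 exon bases with its partner.

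VPS33B-DT and CD2BP2-DT were the least deeply counted of the 7. VPS33B takes part in vacuolar sorting, and VPS33B-DT had 5, 2 and 4 counts in EW8 at 0 h, then 13, 10 and 11 at 48 h (log2 fold change 1.90, SE 0.49, adjusted p = 9.90e-04). CD2BP2 is a protein of the spliceosome, and CD2BP2-DT had 7, 6 and 8 counts at 0 h, then 16, 11 and 9 at 48 h (1.07, SE 0.40, adjusted p = 0.0193). The call of CD2BP2-DT was lost without replicate 3 at 0 h (adjusted p = 0.105) and without replicate 1 at 48 h (adjusted p = 0.142). CD2BP2-DT shares 367 exon bases with its partner and also overlaps exons of TBC1D10B.

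BAIAP2-DT, MAFG-DT and CHKB-DT were called lower in EW8. BAIAP2 encodes an adaptor protein of the actin skeleton. BAIAP2-DT was at 19.1, 21.0 and 18.4 CPM in EW8 at 0 h and at 9.04, 8.02 and 7.83 CPM at 48 h. It fell by 1.22 on the log2 scale (SE 0.08, adjusted p = 4.80e-15), and each 48 h library was under the lowest 0 h library by more than the range within a group. In TC71 it was at 22.4, 22.3 and 22.3 CPM at 0 h and at 18.1, 17.2 and 17.6 CPM at 48 h. It fell there by 0.34 (SE 0.07, adjusted p = 1.30e-04), and the difference between the lines was −0.88 (adjusted p = 3.26e-08).

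MAFG is a small MAF protein, a transcription factor of the basic leucine zipper type. MAFG-DT was at 10.5, 11.2 and 11.3 CPM in EW8 at 0 h and at 5.21, 5.51 and 5.33 CPM at 48 h, and fell by 1.04 on the log2 scale (SE 0.11, adjusted p = 2.59e-10). In TC71 it was at 12.6, 12.8 and 11.8 CPM at 0 h and at 9.54, 7.24 and 9.22 CPM at 48 h, and fell by 0.51 (SE 0.09, adjusted p = 3.13e-05). The libraries of 0 h and 48 h did not overlap in either line, and the difference between the lines was −0.53 (adjusted p = 0.00288). CHKB-DT, beside the gene of a choline kinase, had 4, 7 and 13 counts in EW8 at 0 h, then 2, 2 and 3 at 48 h. At 3 counts or fewer its fitted fold is not firm, and its adjusted p of 0.0372 rose to between 0.0571 and 0.154 without replicate 2 or 3 at 0 h or any 1 replicate at 48 h, and was 0.075 with DESeq2 and 0.0607 with scaling by total counts.

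When each library was scaled by its total count alone, the median change over the whole table in EW8 moved from 0.03 to 0.16. The -DT calls were then 9 higher and 1 lower, against 7 and 3. MAFG-DT fell by 0.91 on that scale, under the fold threshold, and CHKB-DT missed the adjusted p. With a filter of at least 10 counts in every library, 1 -DT gene was called higher in EW8.

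The only -DT gene called in TC71 was APCDD1L-DT, which had 2, 4 and 2 counts at 0 h, then 9, 11 and 10 at 48 h. Its log2 fold change was 1.60 (SE 0.57, adjusted p = 0.0233). The call was lost without replicate 1 or 3 at 0 h, without replicate 2 at 48 h and with DESeq2 (adjusted p = 0.0604). In EW8 it had 11, 3 and 7 counts at 0 h, then 14, 10 and 4 at 48 h, with groups that overlapped.

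No -DT gene was called in the same direction in both lines, against 3.02% of all genes, and 7 had an adjusted p below 0.05 in both (14.3%), against 34.7% of all genes. Of these 7, 6 moved in the same direction (85.7%), as did 91.9% of all genes that passed in both. Leaving out 1 library gave 6 to 8 genes that passed in both lines, and DESeq2 gave 6. Without replicate 2 of TC71 at 48 h, 5 of 8 moved in the same direction. FAM111A-DT, beside the gene of a protease of replication forks, rose by 1.0 in EW8 and 0.95 in TC71 on the log2 scale. Its counts in EW8 were 8, 9 and 13 before and 13, 18 and 18 after removal of doxycycline, and in TC71 10, 9 and 9 and then 18, 27 and 20. It shares 153 exon bases with its partner. In TC71 its adjusted p of 0.0161 rose to between 0.0527 and 0.119 without replicate 1 or 3 at 0 h or replicate 2 at 48 h, and was 0.0657 with DESeq2. MAP3K2-DT rose by 1.25 and 0.81. Its adjusted p in TC71 (0.0152) was lost without replicate 3 at 0 h (log2 fold change 0.59, adjusted p = 0.109) and without replicate 1 at 48 h (0.65, adjusted p = 0.0798). CAPN10-DT, beside the gene of a calpain protease, fell by 0.94 in EW8 and by 0.92 in TC71, from a mean of 3.56 CPM to 1.82 CPM and from 3.80 CPM to 2.0 CPM. BAIAP2-DT and MAFG-DT are described above.

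CTBP1-DT was the exception among the 7. CTBP1 is a transcriptional corepressor. CTBP1-DT was at 28.7, 28.2 and 27.4 CPM in EW8 at 0 h and at 22.5, 23.5 and 21.7 CPM at 48 h, and at 43.3, 45.9 and 42.2 CPM and then 52.3, 47.8 and 53.1 CPM in TC71. Groups of 0 h and 48 h did not overlap in either line. CTBP1-DT fell by 0.31 in EW8 (SE 0.06, adjusted p = 5.78e-05) and rose by 0.22 in TC71 (SE 0.05, adjusted p = 0.00123), and the difference between the lines was −0.54 (adjusted p = 2.40e-06). It shares 701 exon bases with CTBP1, which changed by −0.43 in EW8 and 0.05 in TC71. Across the 49 genes the EW8 and TC71 changes had a Pearson r of 0.41 and a Spearman coefficient of 0.35, a description across genes of shared library depth that are not replicates.

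Some -DT genes passed the adjusted p in a single line without a fold above 2. KDM7A, whose -DT gene was among them, encodes a histone demethylase. KDM7A-DT was at 1.88, 1.78 and 2.71 CPM in EW8 at 0 h and at 4.63, 4.11 and 4.26 CPM at 48 h, and rose by 0.97 on the log2 scale (SE 0.16, adjusted p = 1.89e-06). In TC71 it was at 5.20 to 5.25 CPM at 0 h and changed by 0.15 (adjusted p = 0.330), and the lines differed by 0.82 (adjusted p = 9.52e-04). EIF3J, a translation initiation factor, had a -DT gene at 2.45, 2.29 and 2.99 CPM in EW8 at 0 h and at 1.54, 1.30 and 1.71 CPM at 48 h. EIF3J-DT fell by 0.79 (SE 0.18, adjusted p = 2.30e-04) with groups that did not overlap. NCK1-DT and FRG1-DT rose in EW8 by 0.62 and 0.56, and MAP4K3-DT and GMDS-DT fell by 0.71 and by 0.69. Each of these 4 missed the adjusted p in at least 2 of the refits that left out 1 EW8 library. The adjusted p reached 0.121 for NCK1-DT (without replicate 2 at 0 h), 0.116 for FRG1-DT (without replicate 3 at 48 h), and 0.0968 for MAP4K3-DT and 0.18 for GMDS-DT (both without replicate 1 at 0 h). NCK1-DT shares 146 exon bases and MAP4K3-DT 75 with the partner, and EIF3J-DT overlaps exons of CTDSPL2.

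MRPL20-DT, beside the gene of a mitochondrial ribosomal protein, changed least in EW8 among the 5 with the highest mean CPM. It was at 31.4, 31.9 and 32.4 CPM at 0 h and at 31.3, 31.9 and 33.2 CPM at 48 h there, a log2 fold change of 0.01 (SE 0.06, adjusted p = 0.880). In TC71 it was at 18.3 to 19.3 CPM at 0 h and 16.0 to 17.1 CPM at 48 h and fell by 0.19 (SE 0.07, adjusted p = 0.0170), which rose to 0.0808 without replicate 1 at 0 h, 0.0791 without replicate 3 at 48 h and 0.0722 with scaling by total counts. The remaining 25 -DT genes passed in neither line. Their log2 fold changes ranged from −0.96 (RPL34-DT) to 0.71 (TMEM30A-DT) in EW8 and from −0.66 (MRPS30-DT) to 0.62 (TMEM30A-DT) in TC71. RPL34-DT had 0, 2 and 8 counts in EW8 at 0 h and 1, 1 and 2 at 48 h, at or under 3 counts in 5 of 6 libraries.

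The difference between the lines was called for 2 -DT genes, both higher in EW8, against 7.28% of all genes higher and 0.981% lower. ODC1-DT changed by −0.33 in TC71 (SE 0.22, adjusted p = 0.236), from 45, 35 and 42 counts to 27, 52 and 37, and the difference was 2.17 (adjusted p = 3.36e-06). NFE2L1-DT changed by −0.45 in TC71 (SE 0.23, adjusted p = 0.120), from 32, 29 and 36 counts to 22, 34 and 29, and the difference was 1.87 (adjusted p = 2.57e-04). Without replicate 2 of TC71 at 48 h, the TC71 change was −0.65 for ODC1-DT and −0.64 for NFE2L1-DT. Under some alternative each gene had an adjusted p below 0.05 in TC71. In both genes the EW8 level at 0 h was the low one of the 4 groups. ODC1-DT had a mean of 0.583 CPM there, against 2.08 CPM in EW8 at 48 h and 1.71 and 1.37 CPM in TC71. NFE2L1-DT had 0.348 CPM there, against 0.934, 1.37 and 1.0 CPM.

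Each -DT gene was then compared with its partner within the same library. The log2 ratio of the -DT CPM to the partner CPM was tested with limma over 15970 pairs, which were the 48 -DT pairs and 15922 pairs of neighbouring genes, and was called with the same thresholds. In EW8 the ratio was called higher in 3 of 48 -DT pairs (6.25%) and lower in 6 (12.5%), against 18.7% and 9.49% of all pairs. In TC71 it was called higher in 1 (2.08%) and lower in 0, against 4.41% and 2.37% of all pairs. With the adjusted p alone, 11 were higher (22.9%) and 9 lower (18.8%) in EW8, against 39% and 25.4% of all pairs. In TC71 these were 2 (4.17%) and 6 (12.5%), against 20.9% and 14.3% of all pairs. The difference from all pairs was not tested. Among 722 head-to-head pairs of coding genes with starts within 1000 bases, 11.8% were called higher and 4.99% lower in EW8, and 0.416% and 0.416% in TC71.

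The 6 pairs with a lower ratio in EW8 were those of BAIAP2, MAFG, RAB30, EIF2AK3, DNAJC3 and MFF. In all 6 the partner rose, and the -DT gene fell in 3 (BAIAP2-DT, MAFG-DT and MFF-DT). BAIAP2 was at 16.0, 17.2 and 16.5 CPM in EW8 at 0 h and at 43.9, 40.7 and 43.4 CPM at 48 h. It rose by 1.37 on the log2 scale (SE 0.07, adjusted p = 5.26e-18) while BAIAP2-DT fell, and the log2 ratio changed by −2.58 (SE 0.09, adjusted p = 3.95e-20). Per kilobase, BAIAP2-DT went from 254% of BAIAP2 to 41.9%. In TC71 BAIAP2 rose from 24.6, 27.2 and 22 CPM to 38.7, 33.9 and 38.7 CPM, by 0.60 (SE 0.07), and the log2 ratio changed by −0.94 (SE 0.09, adjusted p = 1.68e-09). Per kilobase the level went there from 196% to 102%, and the ratio changes differed between the lines by −1.65 (adjusted p = 1.91e-11).

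MAFG was at 53.4, 55.0 and 57.8 CPM in EW8 at 0 h and at 94.3, 94.0 and 91.8 CPM at 48 h, and rose by 0.75 on the log2 scale (SE 0.05, adjusted p = 1.61e-15). With MAFG-DT lower, the log2 ratio changed by −1.78 (SE 0.11, adjusted p = 1.43e-14). In TC71 MAFG rose by 0.16 (adjusted p = 0.00675) and the log2 ratio changed by −0.68 (SE 0.11, adjusted p = 9.79e-06). BAIAP2 and MAFG were the pairs whose members moved in opposite directions, both with an adjusted p below 0.05, in both lines.

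RAB30, EIF2AK3 and DNAJC3 rose in EW8 by over 1 on the log2 scale, while their -DT genes changed by at most 0.28. RAB30 is a small GTPase of the Golgi, and it rose from 28.1, 25.7 and 28.5 CPM to 98.8, 113 and 110 CPM (log2 fold change 1.96, SE 0.06, adjusted p = 1.32e-24). RAB30-DT was at 6.22, 5.67 and 6.59 CPM at 0 h and at 7.71, 7.82 and 7.10 CPM at 48 h (0.28, SE 0.11, adjusted p = 0.0316). That p reached 0.162 without replicate 2 at 0 h and passed 0.05 in 4 of the 6 refits without an EW8 library. The log2 ratio of this pair changed by −1.68 (SE 0.12, adjusted p = 7.36e-13) in EW8 and by −0.85 (adjusted p = 2.08e-06) in TC71, where RAB30 rose by 0.73 and RAB30-DT changed by −0.14 (adjusted p = 0.300). RAB30-DT shares exon bases with LINC02951, not with RAB30.

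EIF2AK3 encodes PERK, and DNAJC3 encodes an inhibitor of PERK and co-chaperone, both of the endoplasmic reticulum stress response. EIF2AK3 rose by 1.61 in EW8 (adjusted p = 1.66e-19), from a mean of 13.1 CPM to 40.3 CPM. EIF2AK3-DT had 21, 13 and 28 counts at 0 h, then 14, 15 and 18 at 48 h, which is 0.745 to 0.920 CPM and 0.744 to 0.881 CPM, with groups that overlapped (log2 fold change −0.09, adjusted p = 0.775). The log2 ratio changed by −1.69 (SE 0.23, adjusted p = 3.64e-07). DNAJC3 rose by 1.34 (adjusted p = 5.78e-24), from 98.4 CPM to 250 CPM. DNAJC3-DT was at 1.45, 1.55 and 1.10 CPM at 0 h and at 1.17, 0.902 and 1.47 CPM at 48 h (−0.16, adjusted p = 0.574), and the log2 ratio changed by −1.55 (SE 0.22, adjusted p = 5.23e-07). In TC71 the ratio changes were −0.45 (adjusted p = 0.144) and −0.35 (adjusted p = 0.237). MFF, the mitochondrial fission factor, gave the smallest of the 6 changes, a log2 ratio change of −1.05 (SE 0.29, adjusted p = 0.00222). MFF-DT had 16, 18 and 22 counts at 0 h, then 9, 11 and 6 at 48 h, and fell by 0.80 (adjusted p = 0.0368). That p rose to between 0.056 and 0.181 without replicate 2 at 0 h or without replicate 1 or 3 at 48 h (log2 fold change −0.57 without the last), and was 0.0717 with DESeq2 and 0.0789 with scaling by total counts. The ratio change was −0.82 without replicate 2 at 0 h or replicate 3 at 48 h. MFF-DT shares 507 exon bases with its partner and also overlaps exons of COL4A3.

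**Figure D4:**
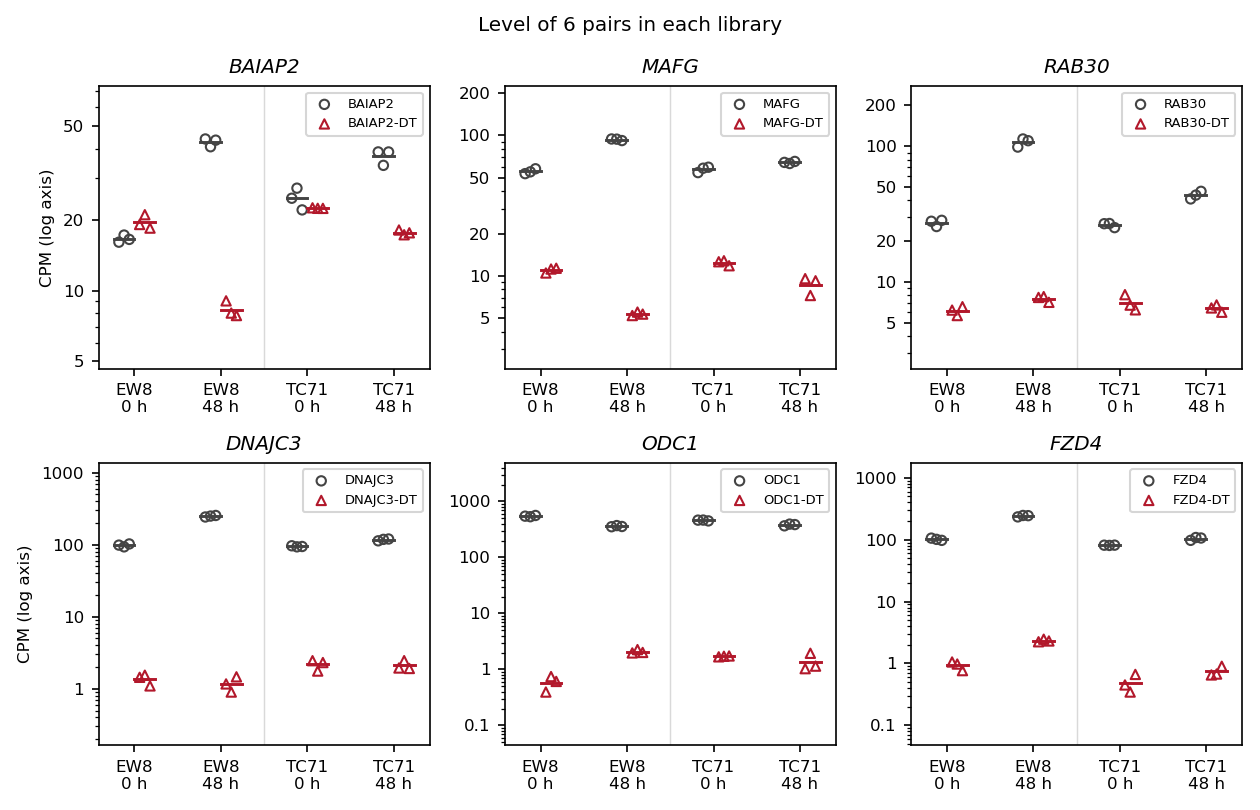
CPM on a log axis of 6 partners (grey circles) and their -DT genes (red triangles) in each library of EW8 and TC71 at 0 h and 48 h, with bars at the group means. In BAIAP2 and MAFG the partner goes up and the -DT gene goes down in EW8, in RAB30 and DNAJC3 the partner moves up over a -DT gene near its 0 h level, in ODC1 the -DT gene goes from 0.583 to 2.08 CPM, and in FZD4 both go up.

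The ratio was called higher in EW8 for ODC1, NFE2L1 and MAP3K2. ODC1 was at 544, 532 and 560 CPM in EW8 at 0 h and at 353, 370 and 356 CPM at 48 h, and fell by 0.60 on the log2 scale (adjusted p = 3.20e-16). With ODC1-DT higher, the log2 ratio changed by 2.33 (SE 0.24, adjusted p = 1.75e-09). Per kilobase, ODC1-DT was at 0.0747% of ODC1 at 0 h and at 0.404% at 48 h. In TC71 the ratio change was −0.09 (adjusted p = 0.819), and the lines differed by 2.42 (adjusted p = 1.52e-06). NFE2L1 fell by 0.14 in EW8 and the log2 ratio changed by 1.37 (SE 0.26, adjusted p = 4.70e-05). For MAP3K2 the log2 ratio changed by 1.19 (SE 0.29, adjusted p = 7.69e-04), and by 0.84 without replicate 2 at 0 h. All 3 of these -DT genes averaged under 20 counts in EW8 at 0 h.

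Ratios of smaller change passed the adjusted p for other well-counted pairs in EW8. NUP50, a nuclear pore protein, fell by 0.62 on the log2 scale, from a mean of 230 CPM to 150 CPM, and NUP50-DT was at 1.31 to 1.60 CPM at 0 h and 1.66 to 1.75 CPM at 48 h (log2 ratio change 0.80, SE 0.15, adjusted p = 3.52e-05). MRPL20 fell by 0.36 over a steady MRPL20-DT (log2 ratio change 0.37, SE 0.08, adjusted p = 1.12e-04). WASL, an activator of actin assembly, rose by 0.55, from 79.0 CPM to 116 CPM, and WASL-DT was at 3.29 to 3.59 CPM and 2.92 to 3.43 CPM (log2 ratio change −0.68, SE 0.16, adjusted p = 6.10e-04). CAPN10-DT fell against its partner in both lines, with log2 ratio changes of −0.74 (adjusted p = 7.17e-04) and −0.92 (adjusted p = 1.59e-04).

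The ratio called in TC71 was that of CHKB. CHKB had 16, 15 and 16 counts at 0 h, then 6, 11 and 8 at 48 h, and CHKB-DT had 5, 13 and 11 and then 14, 8 and 15. The log2 ratio changed by 1.11 (SE 0.44, adjusted p = 0.0488), and the groups of CHKB-DT overlapped. The call was lost without replicate 3 of EW8 at 0 h, without replicate 2 or 3 of EW8 at 48 h, without replicate 1 or 3 of TC71 at 0 h and without replicate 1 or 3 of TC71 at 48 h, with values between 0.77 and 1.21.

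The change in ratio differed between the lines, with the same thresholds, in 2 pairs toward EW8 (ODC1 and NFE2L1) and in 4 toward TC71 (BAIAP2, MAFG, EIF2AK3 and DNAJC3), against 11% and 4.7% of all pairs. For EIF2AK3 and DNAJC3 the difference was −1.24 (adjusted p = 0.00347) and −1.20 (adjusted p = 0.00258).

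Read from the partners, 7 of the 48 were called higher in EW8 (14.6%, against 13.9% of all genes), namely RAB30, EIF2AK3, BAIAP2, DNAJC3, OSER1, FZD4 and FAM111A. Of their 7 -DT genes, 2 were called higher (FZD4-DT and OSER1-DT), 1 was called lower (BAIAP2-DT) and 4 were not called. Among those 4, FAM111A-DT rose by 1.0 and FAM111A by 1.06. No partner was called lower in EW8, against 3.35% of all genes. In TC71, 0 of the 48 were called higher and 1 lower (CHKB, 2.08%), against 3.26% and 0.854%.

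In EW8 both members passed the adjusted p in 18 of the 48 pairs (37.5%), against 48.1% of all pairs. Of these 18, 13 moved in the same direction (72.2%), against 56.8% of all pairs in which both passed. The same direction was seen, for example, in KDM7A (0.97 for KDM7A-DT and 0.71 for KDM7A on the log2 scale), and in EIF3J (−0.79 and −0.55). The 5 with opposite directions were BAIAP2, MAFG, MFF, NFE2L1 and ODC1, and MFF is among them only while MFF-DT passes, as described above. RAB30, FRG1 and GMDS are likewise among the 13 only while their -DT genes pass, as described above. Exon bases are shared with the partner by CTBP1-DT, MAP3K2-DT and FAM111A-DT among the 13 and by MFF-DT among the 5. In TC71 both members passed in 4 pairs (8.33%), against 18.9% of all pairs, and 2 of the 4 moved in the same direction (50%), against 59.6%. These differences from all pairs were not tested.

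Across all 48 pairs, the changes of the -DT gene and of the partner were set against each other. Pearson's r was 0.23 and Spearman's coefficient 0.28 in EW8, and 0.16 and 0.18 in TC71. Over the pairs in which each member averaged at least 20 counts, r was 0.25 in EW8 (n = 21) and 0.19 in TC71 (n = 34). Without that limit on counts, head-to-head coding pairs had an r of 0.22 and 0.24, and neighbouring pairs in general 0.18 and 0.16. With it, r was 0.21 and 0.24 in head-to-head pairs and 0.12 and 0.11 in neighbouring pairs. Spearman's coefficient without the limit was 0.18 and 0.24 in head-to-head pairs and 0.14 and 0.12 in neighbouring pairs. These values are descriptions, since members of a pair share libraries, depth and, in 14 of the 48 pairs, exon bases. Both members moved in the same direction in 28 of 48 pairs (58.3%) in each line, against 54.3% and 53.6% of all pairs. The -DT change minus the partner change had a median of 0.11 in EW8 and −0.07 in TC71 on the log2 scale, and 0.17 and 0.03 over all pairs. These values turned on single libraries. Without replicate 3 of EW8 at 0 h, r in EW8 was 0.12 and the median difference −0.029. In TC71, r was 0.079 without replicate 2 at 48 h, and the median difference was −0.021 without replicate 3 at 0 h.

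**Figure D5:**
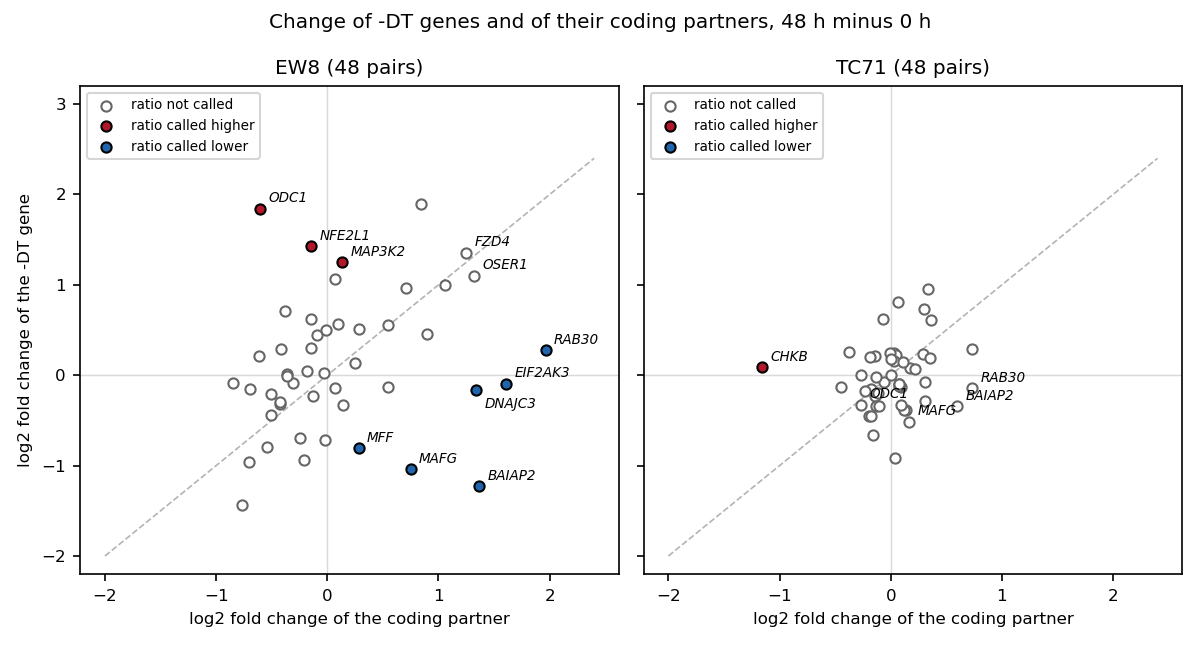
Log2 fold change from 0 h to 48 h of the -DT gene (vertical axis) against that of its partner (horizontal axis) for 48 pairs in EW8 (left) and TC71 (right), with a dashed line of equal change. In EW8 the 6 pairs with a lower ratio (blue) lie to the right and under the line and the 3 with a higher ratio (red) lie over it, while in TC71 most points lie near the origin and 1 is called.

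Divergent transcripts in general are shaped by early termination, elongation and nuclear decay. A list of 54 genes was examined, of the nuclear RNA exosome and its adaptors, the cap-binding complex, Integrator, the cleavage and polyadenylation machinery and other termination factors, together with the U1 snRNP, which protects transcripts from early cleavage, and factors of pausing and elongation (NELF, SUPT5H, SUPT6H and SUPT16H). In EW8, 1 of the 54 was called higher and 0 lower, against 13.9% and 3.35% of all genes. The one called was ZCCHC8, a scaffold of the nuclear exosome targeting complex, with a log2 fold change of 1.17 (adjusted p = 2.00e-20). With the adjusted p alone, 14 rose and 28 fell in EW8, against 37% and 31.6% of all genes, with a median of −0.15 beside 0.03 over all genes. Among Integrator subunits, which cleave nascent RNA near the start site, INTS6 rose by 0.89 and INTS10 fell by 0.83. In TC71, 0 of the 54 were called, against 3.26% of all genes higher and 0.854% lower. There 8 rose and 11 fell, against 22.9% and 19.2% of all genes, with a median of −0.02. Their part in the -DT changes was not tested.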

How the data were processed

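The authors prepared RNA (RNeasy Plus Mini Kit), made libraries with the TruSeq Stranded mRNA kit (the labels give the molecule as polyA RNA) and mapped reads to hg38 with STAR after FastQC. The deposited table holds raw counts per gene in 12 columns, without normalization. Its smallest row sum was 21. The counting tool, its strand setting and its annotation are not given in the sources used here, and 773 rows carry no symbol.

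Genes ending in -DT were paired by name, and 19943 identifiers were matched to GENCODE 44. The members and lists were chosen with earlier results of these data known. Counts were filtered with filterByExpr (minimum count 10, minimum total count 15), scaled by TMM and fitted over 4 groups with edgeR 4.0.16 in R 4.3.3 (robust quasi-likelihood, common biological coefficient of variation 4.17%). The 48 h libraries were contrasted with those of 0 h separately for EW8 and TC71, and these changes with each other. SE is the log2 fold change divided by the square root of F. Pair ratios (-DT over partner, or the lower over the higher of 2 neighbouring genes, as log2 CPM with a prior count of 2) were tested with limma 3.58.1 (trend, robust). Thresholds were an adjusted p of 0.05 and a fold of 2. Alternatives included DESeq2 1.42.0, other scalings and filters, and each replicate left out. The scripts were tested on simulated data. Genes were named when called, when among the 5 highest by mean CPM, or when their ratio was called, with full values for those averaging at least 20 counts in the lower group. Other -DT genes and partners, such as KDM7A-DT, CAPN10-DT, FAM111A-DT and NUP50-DT, were named after their values were seen. A list of immediate early and AP-1 genes was also searched for partners, and no -DT gene of a gene on it was in the table. MAFG was not on that list. A group at 3 counts or fewer gave no firm fold. Depth limits precision, since most -DT genes had few counts, and no interval on single libraries was computed. Values of 1 tested -DT gene are not reported here.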

Additional observations from a re-analysis of the deposited data

Results flagged for a closer look

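Among the -DT genes, 2 drew attention because the change from 0 h to 48 h differed between the lines in a direct test of that difference (edgeR's quasi-likelihood test, all 12 libraries). For ODC1-DT the EW8 change minus the TC71 change was 2.17 on the log2 scale (adjusted p = 3.36e-06), and leaving out 1 library gave 1.95 to 2.49. For NFE2L1-DT it was 1.87 (adjusted p = 2.57e-04), and leaving out 1 library gave 1.69 to 2.07. Both had few counts in EW8 at 0 h (9 to 20 and 7 to 11 per library), and neither passed a filter of at least 10 counts in all libraries.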

How the results depend on the processing

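Among the genes and ratios named, 1491 of 1534 values under an alternative kept the call or stayed without one, 34 lost the call and 9 gained one. A change of direction with a call was seen in 0. Values that stayed without a call could change sign, as CHKB-DT did in TC71 (log2 fold change 0.09, and −0.31 to 0.45 among the alternatives). The cause of each move below was not tested. Scaling by total counts gave 1 -DT gene called lower in EW8 (3 with TMM) and 2 called higher in TC71 (1), with medians of 0.15 and −0.019 (0.03 and −0.07). Without a filter, 3 were called higher in TC71, the TC71 median was 0.00074, and the ratio was called lower in 10 EW8 pairs (6) and higher in 2 TC71 pairs (1). The CHKB ratio was not among those 2 (log2 ratio change 1.11, limma adjusted p = 0.0662). With at least 10 counts in every library, fewer genes were tested, with 1 -DT gene called higher in EW8 (7), 0 in TC71 and 0 for the difference between the lines (2). The ratio was then called higher in 0 pairs in EW8 (3) and 0 in TC71, the EW8 median was −0.10, the median differences from the partner were −0.10 in EW8 and −0.16 in TC71 (0.11 and −0.07), and r in EW8 was 0.16 (0.23). Each line fitted alone gave an r of 0.12 in EW8 and 0 genes called higher in TC71, as did DESeq2 and an adjusted p below 0.01 for the latter. Without the fold threshold, 12 rose and 10 fell in EW8, 4 rose and 5 fell in TC71, 11 differed between the lines, and the ratio passed as higher in 11 and 2 pairs and as lower in 6 TC71 pairs. The TC71 ratio was called higher in 0 pairs with a prior count of 0.5 or 5 and with the -DT pairs fitted alone. Pairs averaging at least 20 counts gave 0 ratios called higher in EW8 and 0 in TC71, with a TC71 median of −0.11 and a median difference of −0.13. Only -DT genes sharing no exon bases, an alternative chosen after seeing the data along with pairs starting within 1000 bases (which moved no value), gave −0.12 and −0.16. Leaving out 1 replicate gave 6 to 8 genes called higher and 2 to 4 lower in EW8, 0 to 3 and 0 to 1 in TC71, 2 to 4 for the difference, medians of 0.014 to 0.14 and −0.087 to −0.012, median differences of −0.029 to 0.14 and −0.098 to −0.021, r of 0.12 to 0.24 and 0.08 to 0.18, and ratios called higher in 3 to 4 and lower in 5 to 7 EW8 pairs and in 0 to 1 and 0 to 1 TC71 pairs. The replicate numbers did not pair the libraries (correlations of deviations −0.138 to −0.0147), and with the replicate number as a replicate block 2 -DT genes were called lower in EW8 (CHKB-DT lost its call, adjusted p = 0.0568), TC71 ratios called higher were 0 against 1, and no other count changed. The other scalings and a fit that is not robust moved no count by over 1.5 times.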
